A study of Rattus norvegicus with 91 samples.

Results

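The ventral tegmental area of rats labelled sP, the Sardinian alcohol-preferring line, was compared with that of rats labelled sNP, the Sardinian non-preferring line. These are 17 of the 91 arrays in the series, chosen by the line pair and the alcohol preference written in their labels. The labels give 8 arrays for sP (animals 2 to 9) and 9 for sNP (animals 1 to 9), with 1 animal on each array. The series holds 5 such pairs of lines (10 lines in all), and in each pair 1 line had been selectively bred for high and the other for low alcohol drinking. The labels give the line and the alcohol preference of each animal and name no treatment. The Y-linked gene Eif2s3y lay between 10.96 and 11.47 on all 17 arrays, and the female-specific RNA Xist was at most 5.77 (log2).

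The ventral tegmental area is a midbrain region whose dopamine neurons project to the nucleus accumbens and the prefrontal cortex. Tyrosine hydroxylase (Th) makes the dopamine precursor, the transporter Slc6a3 takes dopamine back up, and this circuit is known for its part in reward and in the response to alcohol. A dissected block of the region also holds GABA and glutamate neurons, glia, vessels and, at its edges, tissue of neighbouring nuclei and membranes.

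All 17 arrays carried high signals of the dopamine neuron genes. Th lay between 14.65 and 15.26 on the log2 scale of the deposited signal, on which 1 unit is a doubling. A gene was tested where the mean of at least 1 of the 2 lines reached 6.89. Slc6a3 lay between 14.39 and 15.01. Markers of neighbouring or unrelated tissue were dim in part. The choline acetyltransferase gene Chat reached 5.78, the pituitary hormone gene Prl 4.80, the cortical gene Tbr1 4.82 and the choroid plexus gene Kl 5.22, all below the level at which a gene was tested. The choroid plexus gene Ttr was also dim on most arrays, with a median of 6.02 and a highest value of 8.80. Other members of the same lists were bright enough to be tested, such as Prph of the cholinergic and motor neuron list (9.81 to 10.78), Enpp2 of the choroid plexus list (at least 13.58) and Prlr of that list (7.64 to 8.40). Of the 16 genes of the hypothalamus and mammillary body list 5 were tested, with Cartpt (8.16 to 10.01), Lhx1 (to 8.74), Lhx5 (to 8.45) and Gal (to 9.05) among them, and Slc6a4 of the serotonin list reached 10.27.

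The labels of these 17 arrays did not follow the largest all-or-none differences in their values, and this bears on every comparison between sP and sNP below. When the value distributions of all 91 arrays were clustered into 5 sets, all 17 fell into a single set of 19. The other members of that set were the arrays labelled AA 19 and ANA 20, of the Finnish AA and ANA lines. Along the columns of the table, the arrays labelled P, NP, AA, ANA, sP or sNP formed runs of 20, 17 and 19 arrays by distribution, while their labels assign 19 arrays to P/NP, 20 to AA/ANA and 17 to sP/sNP. The gene with the widest spread, Fam111a, was either high or low on each array. Its state went with the labels (high in sP, low in sNP) on 9 of the 17 arrays. Read in table order, the high and low states of Fam111a over the last 19 arrays of the table had the order of the P and NP labels over the 19 arrays labelled P or NP at 19 of 19 places. Whether the labels belong to other columns was not tested here, the arrays were kept as labelled, and they are named as arrays labelled sP or sNP.

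No gene passed the test between the arrays labelled sP and those labelled sNP. Of 10389 genes tested with limma, 0 were higher in sP (0% of those tested) and 0 lower (0%) at an adjusted p under 0.05, and the lowest adjusted p was 0.976. An unadjusted p under 0.05 was found for 388 genes, 3.73% of those tested, 179 with a higher mean in sP and 209 with a lower mean. A share of 5% would be 519.5 genes. The values of the 2 lines overlapped in every tested gene, with 0 of 10389 (0%) apart. Differences were small for nearly all genes, with a median absolute difference of 0.0347 on the log2 scale beside a median standard error of 0.0478.

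Only 5 genes differed by 1.5-fold or more in their means, 0 by 2-fold, and all 5 had the lower mean in sP. Their names were read off after their values were seen. Meis2, a homeobox transcription factor, differed most, with 6.95, 7.80 and 9.73 as lowest, median and highest value in sP and 7.96, 9.07 and 10.31 in sNP. The difference was -0.99 ± 0.40 (standard error, 95% interval -1.84 to -0.15). Nhlh1, a helix-loop-helix factor of developing neurons, lay between 6.14 and 7.78 in sP with a median of 6.52. In sNP it lay between 6.53 and 8.61 with a median of 7.70, a difference of -0.87 ± 0.33. Both genes were highest in the arrays sNP 1 or sNP 2 and low in sP 4, sP 7 and sP 9, and their lines overlapped over most of their range.

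Nkx6-1, a homeobox factor of ventral neural progenitors that some midbrain neurons keep, had the smallest standard error of the 5. It ranged from 7.46 to 7.88 in sP with a median of 7.81 and from 7.79 to 9.07 in sNP with a median of 8.34. Its difference was -0.68 ± 0.16 with an interval of -1.02 to -0.34, at an adjusted p of 0.976 in limma. The lines overlapped only through sNP 5, whose 7.79 lay among the sP values. The arrays sNP 6, sNP 1 and sNP 2 were highest, at 9.07, 9.01 and 8.93. The other genes of the 5 were Lum, which encodes the collagen-binding proteoglycan lumican (-0.71 ± 0.28), and Lcat, an enzyme that esterifies cholesterol (-0.63 ± 0.30).

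The remaining genes with the smallest unadjusted p moved little. The ubiquitin-editing brake on inflammation Tnfaip3 had medians of 7.52 in sP and 7.74 in sNP and differed by -0.18 ± 0.04. The membrane glycoprotein gene Prom1 differed by -0.13 ± 0.03, Zfp758 by -0.15 ± 0.04, the synaptic scaffold gene Dlgap1 by -0.23 ± 0.06 and the protocadherin gene Pcdh9 by -0.13 ± 0.04. On the other side, Adamtsl1, a secreted matrix protein, ranged from 8.08 to 8.57 in sP (median 8.26) and from 7.45 to 8.24 in sNP (median 7.95). Its difference of 0.35 ± 0.09 was the widest of the 6 on that side, and 4 of the 8 sP values exceeded every sNP value. The nuclear factor Cc2d1a (0.18 ± 0.05), the Schwann cell gene Sh3tc2 (0.20 ± 0.06), the mitochondrial peptidase subunit Pmpca (0.14 ± 0.04), the exocyst subunit Exoc7 (0.10 ± 0.03) and the nucleotide receptor P2ry2 (0.23 ± 0.07) made up the rest. All 12 had an adjusted p of 0.976.

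The spread among the 17 arrays was large for a small number of genes and did not lie between the labels. The median standard deviation of a gene over the 17 arrays was 0.0997. Only 112 genes reached 0.5 and 13 reached 1. Fam111a led with 2.84, followed by Spp1 with 2.05, Mpeg1 with 1.83, Tnfaip6 with 1.53 and Slc6a4 with 1.45. The difference between the label means of these 5 genes was at most 0.38 in size.

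**Figure D1:**
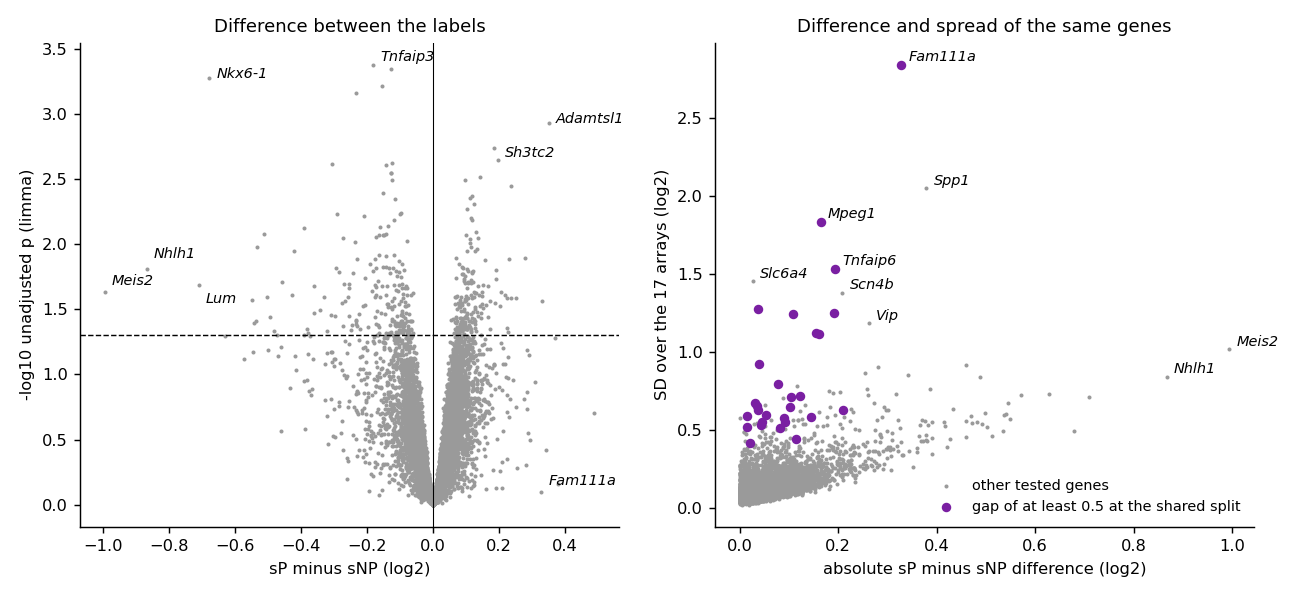
Left, the difference between the means of the arrays labelled sP and sNP (log2) of each of 10389 genes against -log10 of limma's unadjusted p, with a dashed line at 0.05. Right, the absolute difference against the standard deviation over the 17 arrays, with the 28 genes that had a gap of at least 0.5 at the shared split in purple: Fam111a has the largest standard deviation, 2.84, at a difference of 0.33.

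Several of these genes had an all-or-none pattern, so each gene was described by the widest gap between neighbours when the 17 values were sorted, with at least 3 arrays on each side. A gap of at least 1 log2 unit was found in 10 genes, 0.0963% of those tested. In 9 of the 10 the gap separated the same arrays. On 1 side lay sNP 1, sNP 2, sNP 3, sNP 4, sP 6, sP 7, sP 8 and sP 9, and on the other sP 2, sP 3, sP 4, sP 5 and sNP 5 to sNP 9. The first side thus held 4 arrays of each label, and the second 4 labelled sP and 5 labelled sNP. In 0 genes, whatever the size of the gap, was the widest gap the one between the labels.

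Fam111a, which encodes a protease that acts at DNA replication forks and limits some viruses, had the widest gap of all. It was 10.52, 10.28, 10.26 and 10.37 in sNP 1 to sNP 4 and 10.07, 10.25, 10.47 and 10.20 in sP 6 to sP 9. In sP 2 to sP 5 it was 4.69, 4.69, 4.90 and 5.18, and in sNP 5 to sNP 9 it ran from 4.52 to 4.92. The gap was 4.88 log2 units, and all 9 low values lay below the level at which a gene was tested. Both labels held high and low arrays, so that the sP mean of 7.56 and the sNP mean of 7.23 lay where no array was. Their difference was 0.33 with a 95% interval of -2.39 to 3.05.

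Mpeg1, which encodes the pore-forming protein perforin-2 of macrophages and microglia, ran the opposite way. It was 10.80, 10.82, 10.75 and 10.84 in sP 2 to sP 5 and 10.89 to 11.10 in sNP 5 to sNP 9. It was 8.15, 6.75, 7.12 and 6.99 in sNP 1 to sNP 4 and 7.31 to 7.68 in sP 6 to sP 9. The gap was 2.598. The arrays low for Mpeg1 were those high for Fam111a, without exception among the 17. Of the 12 tested members of the microglia list, 0 had their widest gap at this split, and the largest standard deviation was 0.24, that of the complement gene C1qa. C1qa ran from 9.71 to 10.01 on the arrays low for Mpeg1 and from 9.83 to 10.44 on the others. It thus tended the way of Mpeg1, with overlap and without a step.

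The other genes with a gap of at least 1 unit at this split fell on both sides. High in the arrays sNP 1 to 4 and sP 6 to 9 were Creg2, a secreted glycoprotein of the brain (8.04 to 8.66, against 5.43 to 6.16), Dao, the D-amino acid oxidase that breaks down D-serine (8.60 to 8.98, against 6.09 to 6.77), and RT1-T24-3, a class I histocompatibility gene (8.82 to 9.49, against 6.76 to 7.23). High in the other 9 arrays was Tnfaip6, a secreted hyaluronan-binding protein (9.95 to 10.43, against 6.73 to 7.58). So were Adgrg6, an adhesion receptor that Schwann cells need to form myelin (8.89 to 9.22, against 6.08 to 7.08), Vof16 (10.54 to 10.89, against 8.29 to 8.86) and Jhy, a gene of ciliated cells (8.90 to 9.13, against 7.06 to 7.55). No value of any of these genes lay between the sides, and each side held both labels. As for Fam111a, all low values of Creg2 and Dao lay below the level at which a gene was tested. Creg2 and Dao thus reached that level only through their high arrays. Some low values of RT1-T24-3, Tnfaip6 and Adgrg6 also lay below it.

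**Figure D2:**
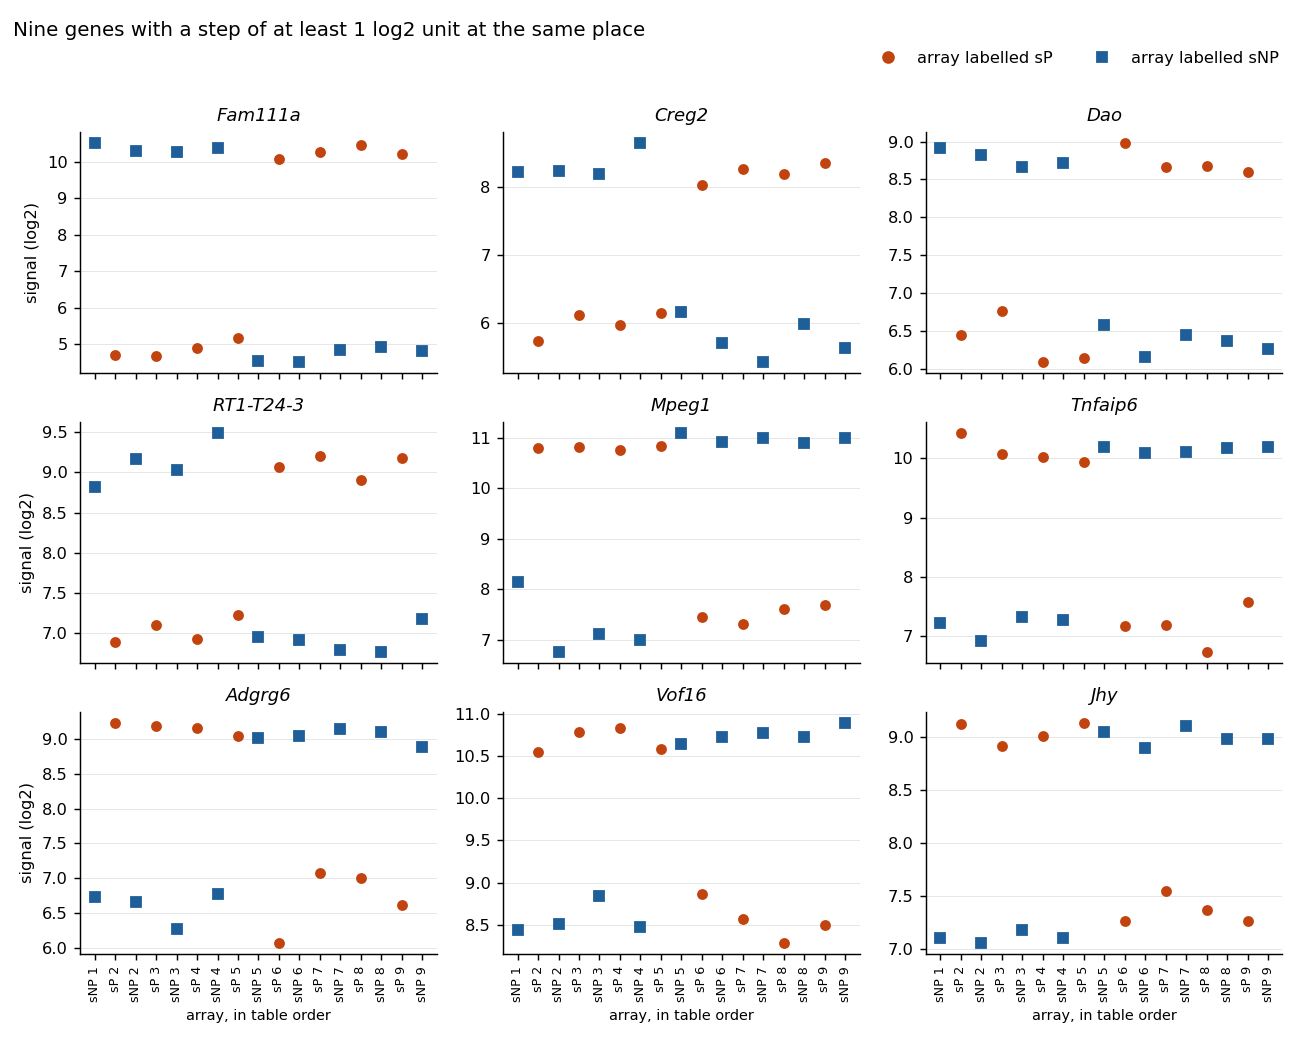
Signal (log2) of 9 genes in each of the 17 arrays, in the order of the table, with circles for arrays labelled sP and squares for arrays labelled sNP. Fam111a, Creg2, Dao and RT1-T24-3 are high in the arrays sNP 1 to 4 and sP 6 to 9, and Mpeg1, Tnfaip6, Adgrg6, Vof16 and Jhy are high in the others.

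Fam111a and Mpeg1 are near neighbours, with 2 protein-coding genes between them in the order of the GRCr8 assembly, and they were high in opposite arrays. Their upstream sequences are therefore shown, as RefSeq gives them on GRCr8: 250 bases before the start of each gene, both on the plus strand. The Fam111a window is chr1:219065389-219065638 and the Mpeg1 window is chr1:218876644-218876893. Capitals mark matches to CCAAT, searched on both strands.
Fam111a: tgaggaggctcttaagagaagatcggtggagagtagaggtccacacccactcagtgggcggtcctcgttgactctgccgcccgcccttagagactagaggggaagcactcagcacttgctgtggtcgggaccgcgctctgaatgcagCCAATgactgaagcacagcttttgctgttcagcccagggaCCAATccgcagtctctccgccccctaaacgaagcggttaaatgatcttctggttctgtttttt
Mpeg1: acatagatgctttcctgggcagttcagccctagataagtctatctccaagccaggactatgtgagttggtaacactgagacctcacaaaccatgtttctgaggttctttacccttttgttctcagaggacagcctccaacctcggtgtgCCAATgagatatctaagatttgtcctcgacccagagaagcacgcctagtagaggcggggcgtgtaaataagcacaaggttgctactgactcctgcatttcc
The Fam111a window held 12 CpG sites, 55.6% G or C and 2 matches to CCAAT, and the Mpeg1 window held 5 CpG sites, 48.4% G or C and 1 match. Neither held TATAAA or GAGGAA, the letters of the core that the myeloid factor PU.1 binds. Among the same windows of 33469 RefSeq entries, CCAAT occurred in 11385, TATAAA in 12.9% and GAGGAA in 23.3%, and the median number of CpG sites was 5. These windows are the reference sequence, and the arrays give no sequence of the sP or sNP animals.

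With a lower limit of 0.5 log2 units, chosen after seeing the data, 42 genes (0.404% of those tested) had a gap, and in 28 of them it fell at the same split. At this limit the next most frequent split held 2 genes. A gene whose widest gap lay within 1 side was not counted at the shared split, even where the sides did not overlap. Rgs7bp was such a gene, with 9.115 to 10.417 in sNP 1 to 4 and sP 6 to 9 and 8.339 to 8.977 in the others. With no limit on the size of the gap, the most frequent split was another one, which set sP 2, sP 4 and sNP 4 apart from the other 14 arrays in 163 genes, and the shared split came next with 93. Of the 28, 13 were high in sNP 1 to 4 and sP 6 to 9 and 15 in the other arrays, or 14 and 14 if Sgcb is read from its 2 other bright probe sets, which ran the opposite way. The genes below 1 unit that were high on the first side included Nt5e, the enzyme CD73 that makes adenosine from AMP (gap 0.84), the sorting nexin Snx14 (0.82), the exonuclease Rexo4 (0.71), the Ras pathway scaffold Shoc2 (0.62) and the signalling gene Vav2 (0.51). Those high on the second side included Lysmd4 (0.92), the dystrophin-complex subunit Sgcb (0.91), the cytochrome oxidase assembly factor Cmc1 (0.83), the endothelial clotting factor Vwf (0.83), the microtubule-binding gene Eml1 (0.78) and Gsta4, a transferase that detoxifies lipid aldehydes (0.58). The 27 of them found in the reference table lay on 12 chromosomes.

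The genes most like Fam111a over the 17 arrays, by Pearson correlation, were Rexo4, RT1-T24-3, Creg2, Dao and Spring1, and those most like Mpeg1 were Tnfaip6, Jhy, Sgcb, Lysmd4 and Vof16. All 10 had their widest gap at the shared split. The values of these genes form 2 clusters of arrays, so no correlation is given for them. The directions of Sgcb and Lysmd4 depend on the probe set, as given further on.

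**Figure D3:**
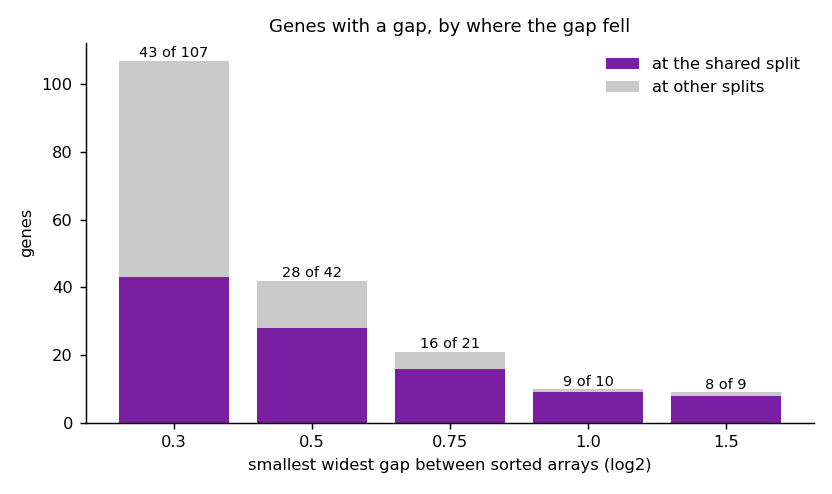
Number of tested genes (y axis) whose widest gap reached the value on the x axis (log2), split into genes whose gap fell at the shared split (purple) and at any other (grey). The shared split held 43 of 107 genes at 0.3, 28 of 42 at 0.5 and 9 of 10 at 1.

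Some of the 28 genes lay within 50 protein-coding genes of each other. Snx14 and Nt5e have 0 protein-coding genes between them and were high in the same arrays, as were Rexo4 and Vav2 with 8 between. Atp10d lies between Sgcb (16 genes away) and Grxcr1 (10 away). It was high where Grxcr1 was low, and where Sgcb was low in the probe set used but not in the 2 other bright probe sets of Sgcb. Serpina11 and Eml1, 33 genes apart, were high together. In all, 7 pairs lay within 50 genes of each other, 4 of them high in the same arrays and 3, with Mpeg1 and Fam111a, in opposite arrays. How many such pairs an equal number of other tested genes would give was not counted. Turning Sgcb exchanges its 2 pairs and leaves these counts at 4 and 3.

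Further probe sets of the same genes gave a check on the signal. Of 11 further probe sets bright enough to be tested, 7 separated the same arrays in the same direction, among them 1 of Adgrg6 (gap 1.07), 1 of Lysmd4 (1.02) and 1 of Eml1 (2.40). In 2 of the 11 the sides overlapped, in that of Vof16 (7.33 to 8.01, widest gap 0.12) and in the other of Eml1 (6.88 to 7.35, widest gap 0.08). Both further probe sets of Sgcb separated the same arrays in the opposite direction, with gaps of 0.41 and 0.42. For Sgcb the direction of the step therefore depended on the probe set, and whether it reflects the amount of RNA or the match of the probes to it was not tested. The further probe sets of Mpeg1 and Tnfaip6 were too dim to be read. Among other probe sets whose line means did not reach the tested level, 1 of Lysmd4 (4.64 to 8.48) separated the same arrays in the opposite direction. Another of Lysmd4 (5.16 to 6.83) and 1 of Vav2 (6.10 to 7.17) separated them in the same direction. The direction for Lysmd4 thus also depended on the probe set. Outside the named genes, 4936 probe sets without a gene symbol were bright enough, and of 17 of them with a gap of at least 1, 13 fell at the same split.

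The 2 arrays of the same distribution set that carry other labels fell on the sides too. AA 19 lay with sNP 1 to 4 and sP 6 to 9 at 28 of the 28 genes, and ANA 20 lay with the other arrays at 28 of 28. Fam111a was 10.54 in AA 19 and 4.86 in ANA 20, and Mpeg1 was 7.64 and 11.02. All 4 values lay within or close to the values of the arrays labelled sP and sNP on that side.

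In the other pairs, whose value distributions differed and whose levels are only set side by side, the pattern varied from pair to pair. Fam111a stayed between 4.41 and 4.95 in HAD1 and LAD1, between 4.75 and 5.14 in HAD2 and LAD2 and between 4.26 and 4.70 in P and NP. Mpeg1 stayed between 10.44 and 11.01 in HAD1 and LAD1 and between 10.68 and 11.45 in HAD2 and LAD2. It ran from 9.29 to 11.20 in P and NP and from 6.21 to 11.02 in AA and ANA. Of the 9 genes with a step of 1 unit, 1 also had one in HAD1/LAD1 (RT1-T24-3), 1 in HAD2/LAD2 (Adgrg6), 1 in P/NP (RT1-T24-3) and 3 in AA/ANA with AA 19 and ANA 20 included (Fam111a, Mpeg1 and RT1-T24-3). The lines did not overlap for 1 of the 9 in HAD2/LAD2, Jhy, and for 0 of the 9 in each of the other 4 pairs, sP/sNP included. Of the 28 genes they did not overlap for 4 in HAD2/LAD2 (Jhy, Lysmd4, Sgcb and Rexo4) and for 0 in each of the other 4 pairs. The shares of all genes with such gaps or without overlap were not counted in the other pairs, so these counts have no background there.

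A second kind of variation was graded and followed another order of the arrays. Spp1, which encodes the secreted phosphoprotein osteopontin, was the 10th gene with a gap above 1 unit (1.54), and its gap fell elsewhere. It was 13.28 in sP 2 and 13.001 in sNP 4, and 6.20 in sP 3 and 6.98 in sP 5, with the others between 7.58 and 11.28. The 5 genes whose values were most like those of Spp1 over the 17 arrays were the 3 neurofilament subunits Nefl (Pearson r = 0.98, Spearman correlation = 0.92), Nefh (0.96 and 0.86) and Nefm (0.93 and 0.84), the polymerase subunit Polr3a (0.92 and 0.81) and the calcium buffer Pvalb of fast-spiking cells (0.90 and 0.77). Without the 2 arrays farthest from the median of Spp1, r was 0.97, 0.94, 0.91, 0.88 and 0.89. These values are a description, since the 17 arrays share a distribution and 2 label groups.

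The sodium channel subunit Scn4b followed the same arrays. It was 11.92 in sNP 4 and 11.54 in sP 2 and lowest, at 6.82 and 7.16, in sP 3 and sP 5. The neurofilament gene Nefh was 14.40 in sP 2 and 14.31 in sNP 4 against 11.31 in sP 3, and the synaptobrevin gene Vamp1 was 13.47 in sNP 4 against 11.38 in sP 3. Grifin, a galectin relative best known from the lens, was 10.05 in sNP 4 against at most 8.72 in the others. The differences between the labels were 0.38 ± 0.93 for Spp1, 0.21 ± 0.63 for Scn4b and 0.26 ± 0.39 for Nefh. The highest array for each of these was of 1 label and the next of the other, so the lines overlapped over nearly the whole range.

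Serotonin transporter signal varied widely, and its 4 highest arrays were also the 4 highest for a neuropeptide gene. Slc6a4 was 10.27 in sNP 5, 9.45 in sNP 8, 9.42 in sP 3 and 9.23 in sP 2, and 5.80 in sP 4, the lowest. Its medians were 7.45 in sP and 7.21 in sNP, with a difference of 0.03 ± 0.66. The neuropeptide gene Gal was high in the same 4 arrays (9.05, 8.15, 8.24 and 8.11) and at most 7.62 in the others. The next highest array for Slc6a4, sP 8 at 8.93, had Gal at only 7.14. Of the serotonin list, the defining factor Fev was below the tested level in all arrays (5.57 to 6.61), as was the receptor Htr1a (5.19 to 6.06). The mean of the 3 tested genes of the list ranged from 8.63 to 9.98 in sP and from 8.64 to 10.30 in sNP. This range came mostly from Slc6a4, with a standard deviation of 1.45 over the 17 arrays against 0.20 for Gata2 and 0.14 for Maob. In bulk tissue a lower signal can come from fewer cells of a type or from less RNA in each cell, and the 2 cannot be told apart here.

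The peptide gene Vip, which marks sets of local neurons, ranged from 7.84 in sP 2 to 11.40 in sP 8. It was 11.12 in sNP 1 and 7.95 in sNP 4. Its medians were 9.60 in sP and 10.42 in sNP, and its difference was -0.26 ± 0.54. High and low arrays carried both labels.

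Genes of the membranes around the brain were highest in 2 arrays labelled sNP. The mean of the 13 tested genes of the meninges and fibroblast list was 10.79 in sNP 9 and 9.84 in sNP 6 and lay between 8.67 and 9.37 in the other 15 arrays. The collagen gene Col1a2 was 11.38 in sNP 9, 10.22 in sNP 6 and 9.75 in sNP 1, and at most 9.42 in the others. Aebp1, a matrix-associated carboxypeptidase relative, was 9.83 in sNP 9 and 8.46 in sNP 6 against 6.08 to 7.65. The haemoglobin gene Hbb was also highest in sNP 9, at 14.12, and the astrocyte filament gene Gfap at 14.29.

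The meningeal list had a lower median in sP, and this rested on 2 arrays. Of its 13 tested genes, 0 had a higher mean in sP, 0 were called, and the median difference was -0.21, where the median over all tested genes was 0.00759. Lum, at -0.71 ± 0.28 and an unadjusted p of 0.0205 in limma, was the member with the lowest p. Without sNP 9 the median difference was -0.0059 and 4 of the 13 genes were higher in sP, and without sNP 6 it was -0.14. Without both it was 0.10, with 11 of the 13 higher in sP, so the direction turned. Without both arrays Lum differed by -0.49, Lcat by -0.30 and Hbb by -0.22. These arrays were left out after their values were seen. Lcat and Fmo1 had their high values in sNP 1, sNP 6 and sNP 9, the 3 arrays with the highest list mean.

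**Figure D4:**
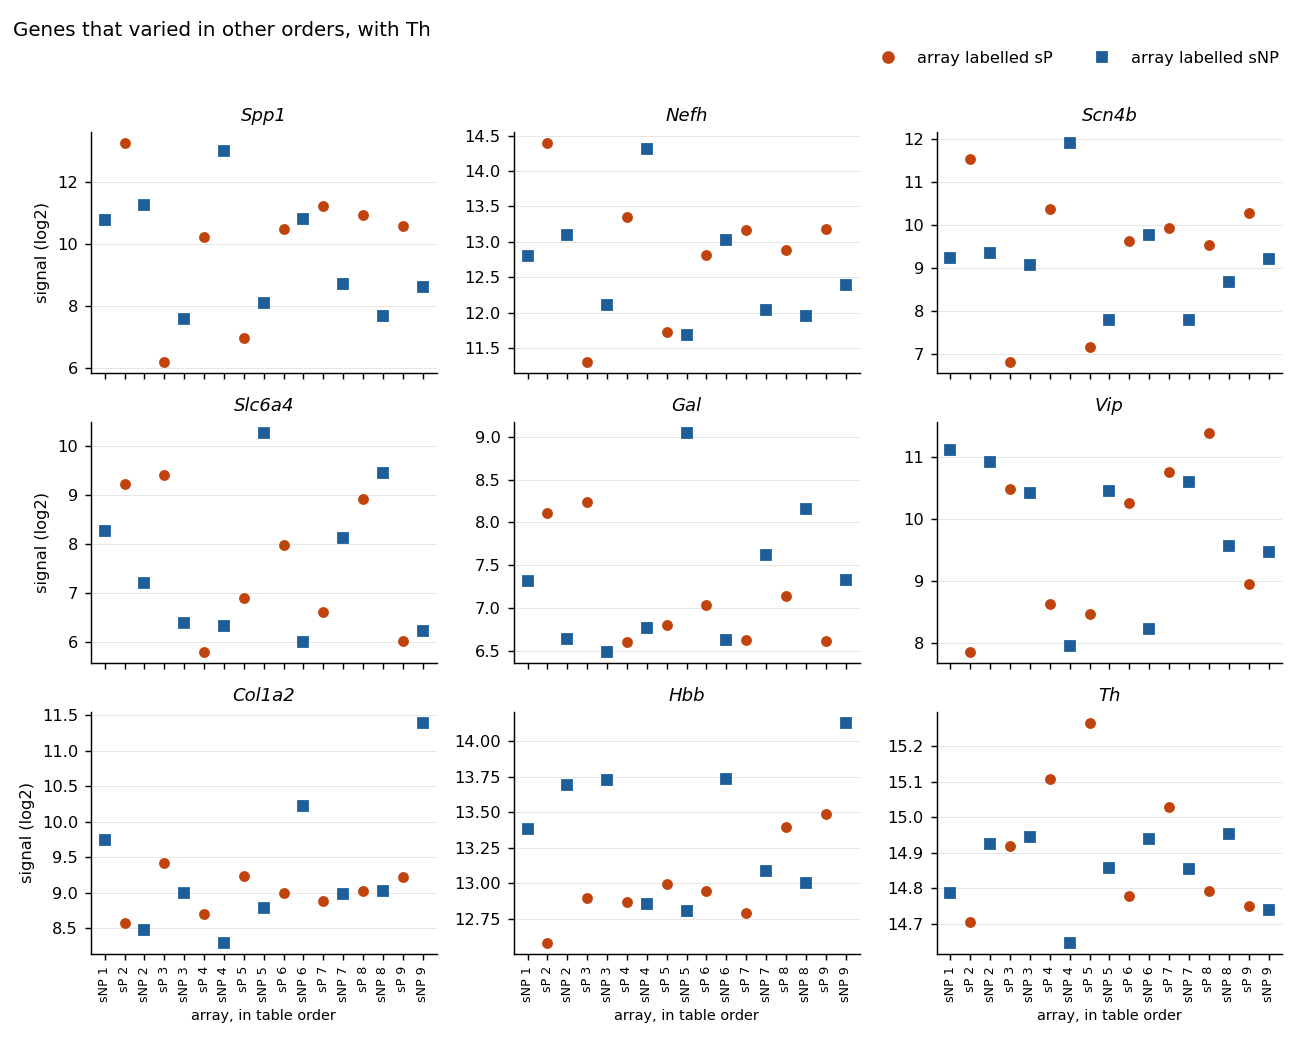
Signal (log2) of 9 genes in the 17 arrays in table order, with circles for arrays labelled sP and squares for arrays labelled sNP. Spp1, Nefh and Scn4b are highest in sP 2 and sNP 4, Slc6a4 and Gal in sNP 5, Vip varies in another order, Col1a2 and Hbb are highest in sNP 9, and Th (lowest right) spans 14.65 to 15.26.

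The dopamine neuron genes showed little difference between the labels. Th had 14.71, 14.86 and 15.26 as lowest, median and highest value in sP and 14.65, 14.86 and 14.95 in sNP, and differed by 0.07 ± 0.07 (95% interval -0.08 to 0.22). The dopamine transporter Slc6a3 differed by 0.07 ± 0.08, the decarboxylase Ddc by 0.08 ± 0.08 and the vesicular transporter Slc18a2 by 0.11 ± 0.09, each with an adjusted p of 0.976 in limma. The highest arrays for all 4 were sP 5 and sP 4, and the lines overlapped. Of 24 genes of the list 18 were tested, 0 were called, 14 had a higher mean in sP, and the median difference was 0.08 (0.04 without sP 5). The autoreceptor gene Drd2 differed by 0.18 ± 0.10 and Aldh1a1, an aldehyde dehydrogenase of a subset of these neurons, by -0.17 ± 0.19. Sncg, a synuclein of these neurons, had the largest standard deviation of the list, 0.54, and was highest in sP 2 at 12.71.

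The other lists gave 0 called genes as well. For 23 of the 26 lists with a tested gene the median difference lay between -0.1 and 0.1. Outside this range, beside the meninges, were the hypothalamus and mammillary body list (5 tested, median -0.18) and the blood list, with Hbb as its 1 tested gene (-0.38 ± 0.18). The hypothalamic median ran from -0.34 without sP 3 to -0.04 without sNP 5, and it moved by more than 1.5 times without any 1 of sP 2, sP 3, sNP 3, sP 4, sNP 5, sP 7, sNP 8 and sP 9. The pituitary list had 0 genes bright enough. Of the immediate early genes, which report recent neuronal activity, 2 of 12 had a higher mean in sP, with a median of -0.08 and Fos at -0.31 ± 0.16. Of the GABA receptor subunits 3 of 9 were higher, with Gabra5 at -0.29 ± 0.09 as the 1 member at an unadjusted p under 0.05 in limma. The GABA neuron list (6 of 10 higher, median 0.03) included Gad1, the enzyme that makes GABA, at -0.37 ± 0.23, and Gad2 at 0.02 ± 0.07.

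**Figure D5:**
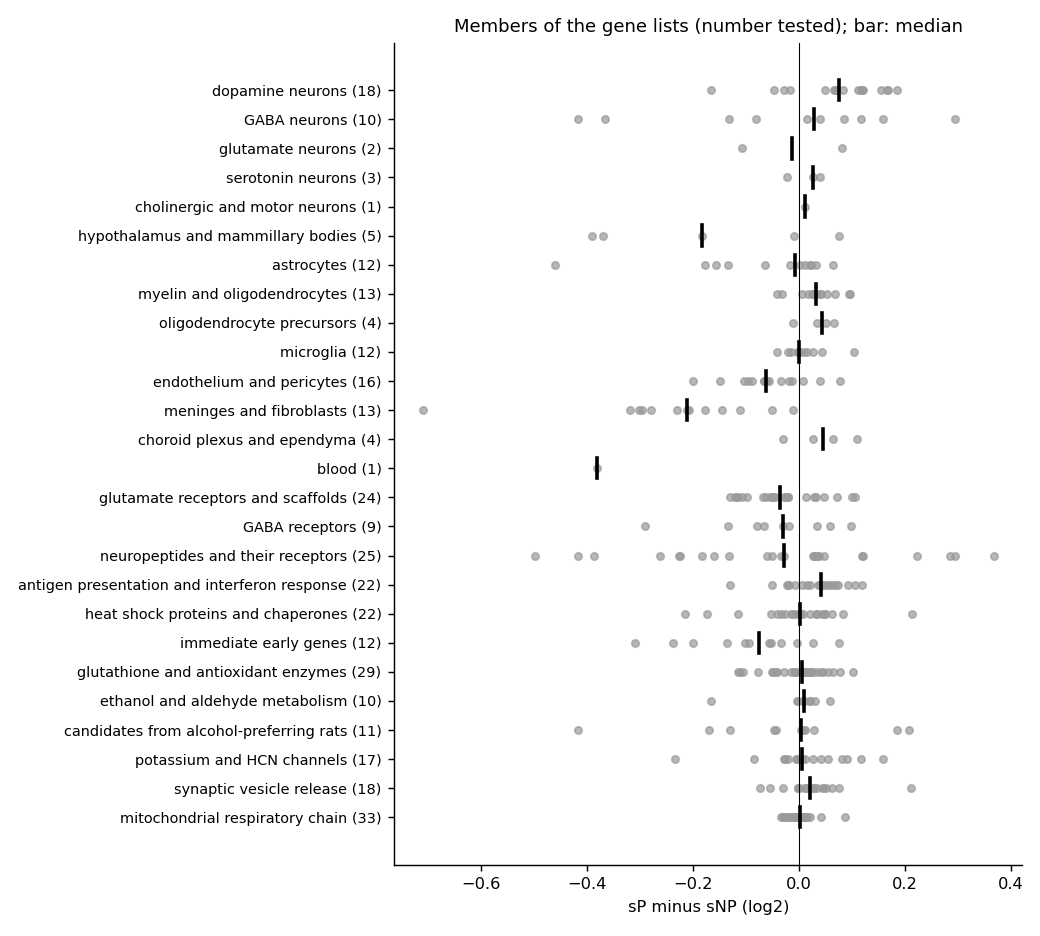
Difference between the means of the arrays labelled sP and sNP (log2, x axis) for the tested members of 26 lists, with the number tested in brackets. Points are genes and bars are list medians, which run from -0.38 for the single blood gene and -0.21 for the meninges to 0.08 for the dopamine neurons.

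Lists of enzymes and receptors often studied in alcohol-preferring rats had small medians. Of the 10 tested genes of ethanol and aldehyde metabolism, 7 had a higher mean in sP and the median was 0.01. Of 29 glutathione and antioxidant genes 16 were higher, with a median of 0.01, and Gsta4, which lay at the shared split, had the largest spread (standard deviation 0.54). Of 24 glutamate receptor and scaffold genes 7 were higher, with a median of -0.04. Of 25 neuropeptide and receptor genes 12 were higher, with a median of -0.03. Of 33 respiratory chain genes 17 were higher, with a median of 0.0025. The standard deviation of the list mean over the 17 arrays was at most 0.12 in each of these lists. Of the 11 tested candidate genes from such rats, 6 were higher in sP, with a median of 0.0033.

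The remaining neuronal lists had medians of 0.0057 (17 potassium and HCN channel genes) and 0.02 (18 genes of synaptic vesicle release), and 22 heat shock and chaperone genes had 0.0019. The 2 tested glutamate neuron genes had a median of -0.01, the 3 serotonin genes 0.03 and Prph, the 1 tested gene of cholinergic and motor neurons, 0.01.

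Some single genes varied widely over the arrays. Slc17a6, which loads glutamate into vesicles, ran from 11.10 in sP 3 to 13.29 in sNP 4, with medians of 12.46 in sP and 12.33 in sNP. The potassium channel gene Kcna2 was likewise highest in sNP 4 (12.84), with sP 2 next (12.35). The glutathione peroxidase Gpx2, which is in none of the lists, ran from 7.16 in sNP 9 to 10.09 in sP 7 and differed by 0.49 ± 0.37 between the labels. It was at least 8.83 in sNP 1 to 4 and sP 6 to 9 and at most 8.51 in the other arrays. The sides of the shared split thus did not overlap for Gpx2, although its widest gap fell elsewhere. The chaperone gene Hspa2 was lowest in sNP 9, at 8.80, and between 9.42 and 10.38 in the others. None of these 4 genes passed the test between the labels, and the lines of each overlapped.

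Glial and vascular lists also had medians near 0. The medians were -0.01 for 12 astrocyte genes, 0.03 for 13 myelin genes and 0.04 for 4 genes of oligodendrocyte precursors. They were 0.0005 for the 12 microglial genes and 0.04 for 4 genes of choroid plexus and ependyma. The endothelial and pericyte list had 3 of 16 genes with a higher mean in sP and a median of -0.06. In 2 of the 16, Vwf among them, the widest gap fell at the shared split. Of 22 genes of antigen presentation and the interferon response 16 were higher in sP, with a median of 0.04. Cd74, the chaperone of class II molecules, was the most variable (8.43 in sNP 9 against at most 7.36 in the others). In 1 of the 22 the widest gap fell at the shared split.

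To ask whether a difference was particular to this pair, the sP minus sNP difference was set against the mean difference of the other 4 pairs in 1 fit of all 91 arrays. Of 11082 genes tested, 1 was called higher (0.00902%) and 0 lower (0%). The gene was Sh3tc2, which encodes an endosomal adaptor that Schwann cells need for myelin. In sP it was 6.89, 7.14 and 7.22 (lowest, median, highest) and in sNP 6.70, 6.88 and 7.13, so the lines overlapped. The difference was 0.20 in this pair and -0.35 as the mean of the others, which left 0.54 ± 0.11 at an adjusted p of 0.027 in limma. In the other pairs the line bred for low drinking had the higher mean, with 7.98 against 7.68 in LAD2 and HAD2, 7.78 against 7.30 in LAD1 and HAD1, 7.54 against 7.05 in ANA and AA and 7.01 against 6.90 in NP and P. The call was lost without any 1 of sNP 2, sP 3, sNP 3, sP 4, sNP 4, sP 5, sP 7, sNP 8, sP 9 and sNP 9, with adjusted p up to 0.107, while the difference stayed between 0.518 and 0.573. Its level was near the lowest at which genes were tested.

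Because the labels of the P/NP and AA/ANA arrays were also in doubt, the comparison was repeated against the HAD1/LAD1 and HAD2/LAD2 pairs alone. It then called 62 genes (0.559% of 11082), 33 higher and 29 lower, and Sh3tc2 was among them (0.59, adjusted p = 0.00204 in limma). Among these 62 genes the median absolute difference between sP and sNP was 0.05 and that of the HAD/LAD mean was 0.43. Without AA 1, AA 19 and ANA 20, the 3 arrays whose distribution went with another pair, Sh3tc2 remained the 1 gene called (0.56, adjusted p = 0.00527 in limma).

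Array measures differed little between the labels. The correlation of 2 arrays over the probe sets of the array ran from 0.9906 to 0.9979, and 0 pairs were identical. Of 5 array measures (median, interquartile range, mean correlation with the other arrays, and the 3'-minus-5' signal of the Gapdh and actin controls), 0 differed in an exact permutation test over the samples. The lowest p was 0.356 (adjusted p = 0.881), where the smallest this design allows is 4.11e-05. The Gapdh control, for example, was 0.389 in sP and 0.395 in sNP.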

How the data were processed

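Per the labels' protocols, Trizol and RNeasy columns were used for the RNA, and 25 ng of it was amplified in 2 cycles for Affymetrix arrays, with 1 animal on each array by the labels. The deposited values are log2 signals. The submitters' processing notes name RMA and do not say which arrays were normalized together. RMA gives all arrays of a run the same distribution, so a shift of most genes in 1 array would be removed.

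Of 31099 probe sets, 57 are controls, 20826 name 1 gene in the platform annotation, 436 name several and 9780 none, and 20758 matched the GRCr8 RefSeq table by gene ID. Each of 14217 genes was read from 1 probe set, the brightest on average over the 17 arrays among those naming that gene alone. A gene was tested if the higher line mean reached the 40th percentile (6.89), which left 10389. Differences were fitted with limma 3.58.1 in R 4.3.3 (15 residual and 3.14 prior degrees of freedom, Benjamini-Hochberg adjustment over all genes tested). The comparison with the other 4 pairs used 1 fit of all 91 arrays and 11082 genes. Array measures were compared by exact permutation (24310 regroupings, two-sided). The scripts were tested on simulated data. The number of arrays limits the precision.

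Genes named are the 6 with the smallest p in each direction, the 20 with the largest standard deviation, the genes with the widest gaps, each list's most variable member, Th, Slc6a3, Ddc and Slc18a2, and the 5 genes most like each of the 3 most variable. Others were chosen after their values were seen. The 27 lists (15 of cell types, 12 of pathways), the members and the gap limits were chosen with earlier results of these data known. Alternatives covered the filter, the normalization, the probe set rule, the fit, the replicate block and each array left out.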

Additional observations from a re-analysis of the deposited data

Results flagged for a closer look

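Of 82 groups of values tested for an array far from the others of its label, 4 had one. Chance gives about 1 in 20 groups, which is about the number found. Among the sP arrays, sP 2 had a mean correlation with the other arrays of 0.9934, below all others of its label. Among the sNP arrays, sNP 4 stood apart in its median signal (7.733 on the log2 scale), in the sodium channel subunit gene Scn4b (11.92) and in the galectin-related gene Grifin (10.05). These 2 arrays were also those with the highest signals of Spp1 and the neurofilament gene Nefh.

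The difference between sP and sNP in Sh3tc2 differed from the mean of the other 4 pairs by 0.5437 on the log2 scale (adjusted p = 0.027 in limma), and this gene was the 1 that passed that test of 11082. Its difference within the sP and sNP pair itself was 0.20 and did not pass the test (adjusted p = 0.976 in limma).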

How the results depend on the processing

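The count of 0 genes between sP and sNP was the same under every other filter, normalization, probe set rule and limma fit tried, and without each array in turn (lowest adjusted p 0.304, without sNP 2, to 0.9995). Genes at an unadjusted p under 0.05, 388 in limma, numbered 114 with all 91 arrays in 1 fit, 587 with array weights, 239 without sNP 1 and 721 without sNP 4. With the replicate block (animal numbers 2 to 9) 0 genes were called, with a lowest adjusted p of 0.9993. Same-numbered arrays did not deviate together: over 8 pairs the correlation ran from -0.402 to 0.305, was above 0.1 in 1 pair, and 0 arrays correlated best with their own number.

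Genes with a gap, and those of them at the shared split, numbered 10 and 9 at 1 unit, 21 and 16 at 0.75, and 9 and 8 at 1.5. At 0.5 (42 and 28) and 0.3 (107 and 43) the limits were chosen after seeing the data. A filter at the 60th percentile, which tests fewer genes, left 4 and 3. Quantile normalization gave 10 and 9, and leaving out single arrays 10 to 11 and 9 to 10. Of the 20 most variable genes, 18 to 20 were shared with each of these normalizations or left-out arrays.

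The comparison with the other pairs called 0 genes under the 60th percentile filter, where Sh3tc2 was not tested, 2 after quantile normalization and 0 to 1 without single arrays. Against the HAD1/LAD1 and HAD2/LAD2 pairs alone it called 62, and without 3 arrays labelled AA or ANA 1, both chosen after seeing the data. The cause was not tested. The median difference of the meningeal list turned from -0.21 to 0.10 without sNP 6 and sNP 9, also left out after seeing the data. Among the genes at the shared split, Sgcb turned in direction with its other probe sets, and Lysmd4 with 1 dim probe set.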
